A study of Mus musculus with 8 samples.

Results

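The respiratory chain subunit genes were examined as 1 set across the cells of the mouse ascending thoracic aorta. The set holds 111 of the 32285 genes of the deposited matrix: 98 nuclear genes whose symbols start with Nduf, Uqcr, Cox4, Cox5, Cox6, Cox7, Cox8, Atp5 or Sdh, and the 13 protein-coding genes of the mitochondrial genome (symbols starting with mt-, tRNA and rRNA left out). The rule for members thus reads names and no measured value, though it was set with earlier results of these data known. The aortas came from 3 young wild-type mice. Each animal carried 1 hashtag antibody, and hashtags 1, 2 and 3 stand for 11, 12 and 13 weeks of age. The tissue was digested with collagenase and elastase, dead cells were removed, and 3′ gene expression and hashtag libraries were sequenced from droplets (CITE-seq). All groups compared are cell groups of the same wild-type animals, with 1 animal per age, so no test was made between ages.

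The respiratory chain sits in the inner mitochondrial membrane. Complexes I and II take electrons from NADH and succinate, complex III passes them through cytochrome c to complex IV, which reduces oxygen, and complex V (ATP synthase) makes ATP from the resulting proton gradient. Most subunits are encoded in the nucleus, while the mitochondrial genome supplies core subunits of complexes I, III, IV and V and none of complex II. Several complex IV subunits exist in a widely expressed form and in an alternative form that is typical of muscle, brown fat, testis or oxygen-regulated tissues.

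Of 48467 barcodes, 27589 had at least 500 genes and at most 20% mt- UMIs (unique molecular identifiers, each standing for 1 captured transcript), with a median of 3280 UMIs and 1402 genes. Barcodes that met 1 of 5 marker rules were grouped: 20812 smooth muscle cell (SMC) barcodes, 2021 fibroblast, 900 endothelial, 28 pericyte and 19 brown fat barcodes. The 1694 barcodes that met several rules were left out of the groups, and 2115 met none. Summed over 6 markers per list, SMC genes reached 33594 CPM (UMIs scaled to 1 common total) in SMC barcodes against 4030 in fibroblast and 5047 in endothelial barcodes, and fibroblast and endothelial markers were highest in their own groups at 25282 and 5535 CPM. These lists hold genes that the rules used. The SMC genes outside the rule, Cnn1, Myl9 and Mylk, summed to 5970 CPM in SMC, 837 in fibroblast and 1068 in endothelial barcodes. The 5 fibroblast markers outside the rule summed to 12935 CPM in fibroblast barcodes against 1255 in SMC, and the 3 endothelial ones to 1864 against 34.3. The brown fat list was not highest in its own group, at 22232 CPM in endothelial, 7700 in pericyte and 6333 in brown fat barcodes. Haemoglobin transcripts differed between groups: the median share per barcode was 2.06% of UMIs in SMC, 0.0926% in fibroblast, 0.138% in endothelial, 0.137% in pericyte and 3.53% in brown fat barcodes. Among SMC barcodes the hashtags differed, with medians of 2.04%, 0.131% and 0.0973% for hashtags 1, 2 and 3 at median depths of 3308.5, 5800 and 5941 UMIs. In UMI sums over all barcodes the order was another. There 5 erythroid markers, mostly haemoglobin genes, were at 15866 CPM in SMC, 15947 in fibroblast, 29801 in endothelial, 38421 in pericyte and 25914 in brown fat barcodes. In the SMC sums of hashtags 1, 2 and 3 they were at 14949, 14415 and 9958 CPM. HTODemux gave a single hashtag to 4644 barcodes (16.8%), and tests used these, summed per hashtag and group. The sums held between 484922 and 6222596 UMIs, from 87 to 1376 barcodes.

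The alternative subunit isoforms gave the widest differences of the set, and Cox7a1 and Cox8b, which rose together in endothelial barcodes, are shown here with their usual partners Cox7a2 and Cox8a. The stretches run 5′ to 3′ from 250 bases before to 50 after the annotated start (RefSeq, GRCm38.p6): Cox7a1 at chr7:30183921-30184220 on the plus strand, Cox7a2 at chr9:79759804-79760103, Cox8a at chr19:7217567-7217866 and Cox8b at chr7:140900397-140900696, all 3 on the minus strand. Capitals mark matches to 4 motifs, each searched on both strands. The TATA box, a core promoter element, was searched as TATAAA. The E box, read by muscle regulatory factors, was searched as CAGCTG. A site of the ETS family was searched as CCGGAAG, and one of NRF1, a factor known for its respiratory chain targets, as GCATGCGC. No marked match overlaps another.
Cox7a1: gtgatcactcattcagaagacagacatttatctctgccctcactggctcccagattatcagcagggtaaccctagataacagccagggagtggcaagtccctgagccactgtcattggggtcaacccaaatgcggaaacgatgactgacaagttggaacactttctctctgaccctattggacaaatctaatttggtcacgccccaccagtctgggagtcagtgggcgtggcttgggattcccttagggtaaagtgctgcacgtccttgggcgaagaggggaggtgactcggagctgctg
Cox7a2: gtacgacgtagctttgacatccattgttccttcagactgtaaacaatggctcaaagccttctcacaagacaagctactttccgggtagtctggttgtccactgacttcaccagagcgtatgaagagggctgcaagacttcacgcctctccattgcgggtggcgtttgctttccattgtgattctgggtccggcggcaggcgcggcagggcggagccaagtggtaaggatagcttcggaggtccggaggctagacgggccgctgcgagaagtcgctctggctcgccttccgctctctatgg
Cox8a: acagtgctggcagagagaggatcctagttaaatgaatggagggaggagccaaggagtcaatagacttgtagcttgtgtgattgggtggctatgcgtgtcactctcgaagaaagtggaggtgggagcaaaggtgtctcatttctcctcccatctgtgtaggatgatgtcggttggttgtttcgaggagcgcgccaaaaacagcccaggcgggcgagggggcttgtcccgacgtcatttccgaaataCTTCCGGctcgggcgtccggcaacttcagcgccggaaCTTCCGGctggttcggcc
Cox8b: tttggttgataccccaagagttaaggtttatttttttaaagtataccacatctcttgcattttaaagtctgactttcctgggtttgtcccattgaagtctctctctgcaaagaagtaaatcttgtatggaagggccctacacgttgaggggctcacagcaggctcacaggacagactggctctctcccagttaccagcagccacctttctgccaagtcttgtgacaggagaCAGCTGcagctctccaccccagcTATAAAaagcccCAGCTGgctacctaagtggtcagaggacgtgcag
Cox8b holds 1 TATA box match and 2 E box matches, Cox8a holds 2 ETS matches, and neither Cox7a1 nor Cox7a2 holds any of the 4 in this window. Among the 84 promoters of the 79 nuclear members in the reference, 12 (14.3%) held the NRF1 letters and 22 (26.2%) the ETS letters, against 2.71% and 8.86% of all 32851 promoters of that length. The TATA box letters were in 11.9% of member promoters and 13.6% of all, and the E box letters in 7.14% and 16.3%. These are counts of letters and say nothing of binding.

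Nuclear members took a larger share of transcripts in SMC than in fibroblast or endothelial barcodes. In such sums, fewer mitochondria-rich cells and less RNA per cell cannot be told apart. The nuclear share was 2.25%, 2.44% and 2.29% of UMIs in SMC sums of hashtags 1, 2 and 3, 1.81%, 1.92% and 1.89% in fibroblast sums, and 1.90%, 2.01% and 1.89% in endothelial sums. The SMC values did not overlap those of the other groups, and hashtag 2 was highest in each. The means were 2.33% ± 0.102, 1.87% ± 0.059 and 1.94% ± 0.067 (SD, n = 3 hashtags). With 3 hashtags per group an exact test on 1 such value cannot pass 0.05, so none was made.

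The mt- share was lower in fibroblast than in SMC sums, as the nuclear share was, but not in endothelial sums. It was 11.8%, 10.5% and 11.1% in SMC sums, 10.2%, 9.66% and 9.88% in fibroblast sums and 12.6%, 10.2% and 11.3% in endothelial sums. Fibroblast values lay below all SMC values, while endothelial values spanned the SMC range. Each nuclear UMI thus stood beside 4.81 ± 0.475 mt- UMIs in SMC, 5.29 ± 0.301 in fibroblast and 5.89 ± 0.767 in endothelial sums (SD, n = 3). The filter at 20% limits these shares: among barcodes with at least 500 genes, 31.5% of SMC, 28.4% of fibroblast and 32.3% of endothelial barcodes lay above it.

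**Figure D1:**
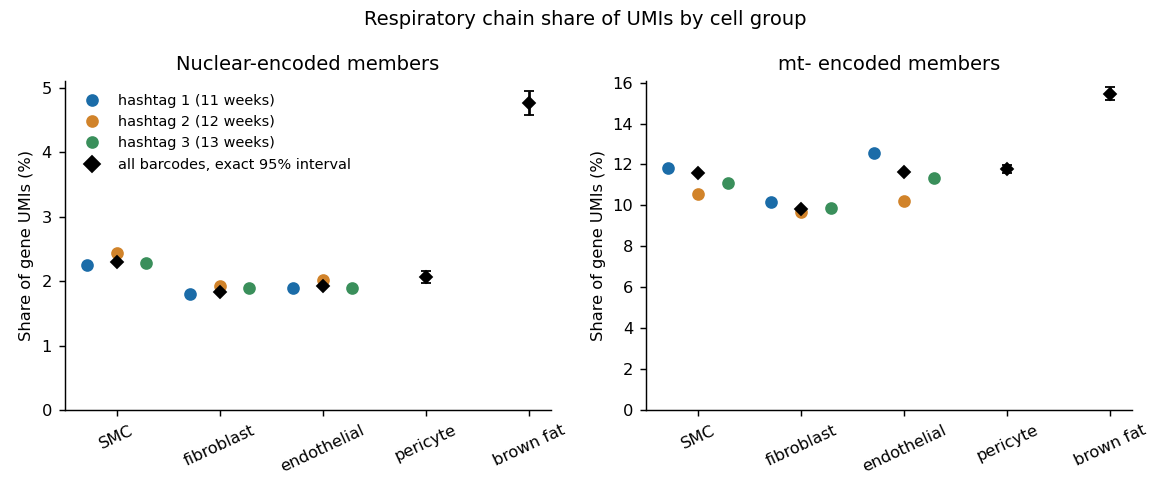
Share of gene UMIs (%) in nuclear members (left) and mt- members (right) for each cell group. Circles are hashtag sums, and diamonds are all barcodes of a group with exact 95% binomial intervals, which cover counting error only; brown fat barcodes stand highest in both, at 4.76% and 15.5%.

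Most nuclear subunits that differed were lower in fibroblasts than in SMC. Of 90 nuclear members tested, 43 were lower and 5 higher in fibroblast sums at an adjusted p under 0.05 (edgeR quasi-likelihood test, Benjamini-Hochberg adjustment). Over all 8423 genes tested, 19.7% were lower and 20.9% higher. The median log2 fold change was -0.33 over the nuclear members and 0.01 over all genes. By complex, 7 of 8 nuclear complex III subunits were lower, 11 of 17 of complex V, 16 of 37 of complex I, 8 of 15 of complex IV tested and 1 of 4 of complex II. Of 9 assembly and supercomplex factors 0 passed by edgeR or by DESeq2, and 1 was higher and 3 lower at an unadjusted p under 0.05. Without barcodes over 1% haemoglobin, which left 7457 SMC barcodes, 44 were lower and 4 higher. The count higher fell from 5 to 2 without hashtag 2 and to 3 without hashtag 3.

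Ndufb3, an accessory subunit of complex I, was at 149, 129 and 178 CPM in fibroblast sums of hashtags 1, 2 and 3, and at 315, 345 and 311 CPM in SMC sums (CPM with TMM scaling, as in all values beside a test). All fibroblast values lay under all SMC values, and the log2 fold change was -1.09 ± 0.12 (SE), and the adjusted p was 1.85e-07. Sdhc, a membrane anchor of succinate dehydrogenase, was at 59.8, 62.3 and 69.7 CPM in fibroblasts and 133, 139 and 135 CPM in SMC, which is -1.09 ± 0.14 on the log2 scale (adjusted p = 1.79e-06). The other complex II subunits did not move with it. Sdha, the flavoprotein that oxidises succinate, was at 84.2 ± 9.64 against 89.2 ± 2.05 CPM (adjusted p = 0.682), and Sdhd, the second anchor, at 31.2 ± 15.5 against 32.9 ± 4.35 CPM (adjusted p = 0.773; SD, n = 3). The iron-sulphur subunit Sdhb was higher in all 3 hashtags, at 94.4 ± 15.5 against 71.7 ± 2.37 CPM, or 0.39 ± 0.15 on the log2 scale (adjusted p = 0.0473). That call was lost in 13 of 18 alternatives (adjusted p 0.0277 to 0.329).

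Cox6c, a small membrane subunit of complex IV, was at 581, 742 and 651 CPM in fibroblast sums and at 1162, 1285 and 1174 CPM in SMC sums. Its log2 fold change was -0.88 ± 0.09 (adjusted p = 2.06e-08), and the groups did not overlap. Cox7c and Cox7a2, also of complex IV, fell by 0.73 and 0.67 on the log2 scale. Ndufa12 and Ndufb1-ps, both of complex I, fell by 0.73 and 0.71; the symbol Ndufb1-ps carries a pseudogene suffix, and whether reads were shared with related copies was not tested, so its level is uncertain. Ndufs1, the largest core subunit of complex I, fell by 0.69 (adjusted p = 0.0101), a call lost in 4 of 18 alternatives (adjusted p 0.00125 to 0.214). Of the other usual forms with an alternative isoform, Cox4i1, the usual subunit IV, fell by 0.32, Cox8a by 0.41 and Ndufa4, a subunit first assigned to complex I, by 0.37; each of these calls was lost in 1 of 18 alternatives. Cox6a1 and Cox6b1 did not pass (adjusted p = 0.165 and 0.348).

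The 5 nuclear members higher in fibroblasts included 2 alternative isoforms. Ndufa4l2, a relative of Ndufa4 known as a target of hypoxia-inducible factor, was at 30.8, 42.2 and 35.9 CPM in fibroblast sums and at 4.67, 4.31 and 3.22 CPM in SMC sums. The log2 fold change was 3.11 ± 0.32 (adjusted p = 4.89e-08). Cox6b2, known as the testis form of subunit VIb, was at 34.2, 50.3 and 40.2 CPM against 6.92, 4.58 and 5.21 CPM, which is 2.84 ± 0.31 on the log2 scale (adjusted p = 1.26e-07). All fibroblast values of both lay above all SMC values. Neither call was lost in the 16 alternatives that tested the gene. Ndufb4, Atp5o and Sdhb, named here because they complete that count, rose by 0.33, 0.39 and 0.39 on the log2 scale.

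Over all fibroblast barcodes, 396 Ndufa4l2 UMIs lay in 279 of 2021 barcodes, with at most 5 in 1, and 322 Cox6b2 UMIs in 242 barcodes, with at most 8. Ndufa4l2 made up 9.10% of Ndufa4l2 and Ndufa4 UMIs there (exact 95% interval 8.26 to 9.99%), against 0.843% in SMC and 1.17% in endothelial barcodes. The 3 hashtag sums gave less, at 6.27%, 7.32% and 6.67%. Pericyte markers did not move with it in 1 direction: in fibroblast against SMC barcodes, pooled, Rgs5 was at 91.5 against 367 CPM and Notch3 at 4.32 against 16.3, while Abcc9 was at 287 against 166 and Kcnj8 at 42.8 against 24.9. All 6 were detected, with a sum of 427 against 575 CPM, and Higd1b had 1 UMI in all fibroblast barcodes. Mesothelial markers summed to 123 CPM in fibroblast and 7.40 in SMC barcodes. In the sums of hashtags 1, 2 and 3 they were at 229, 365 and 332 CPM in fibroblast and 12.1, 9.21 and 7.31 in SMC. Cardiomyocyte markers were at 33.4, 259 and 206 CPM in fibroblast and 79.2, 73.6 and 79.9 in SMC sums. These sums rested on different genes. Myl7 was at 11.7, 251 and 181 CPM in fibroblast and 5.30, 2.99 and 1.89 in SMC sums. Ryr2 went the other way, at 16.7, 3.92 and 14.4 against 73.0, 69.9 and 77.1 CPM. The part of these lists in the result was not tested. In barcodes under 500 genes, Cox6b2 was at 21.7 and Ndufa4l2 at 2.43 CPM.

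The mt- members were lower in fibroblasts as well. Of 13, 10 were lower and 0 higher by edgeR (11 and 0 at an unadjusted p under 0.05), with all 13 fold changes below 0 and a median of -0.23. Over all genes, 19.7% were lower and 20.9% higher, with a median of 0.01. mt-Nd4l had the lowest, at 3816 ± 152 CPM in fibroblast and 4966 ± 364 CPM in SMC sums (log2 fold change -0.38 ± 0.07, adjusted p = 0.000151). mt-Atp6, a complex V subunit, fell by 0.30, mt-Cytb of complex III by 0.23 and mt-Co1, mt-Co2 and mt-Co3 of complex IV by 0.20, 0.21 and 0.18. Of complex I, mt-Nd1, mt-Nd2, mt-Nd3 and mt-Nd4 fell by 0.23, 0.24, 0.35 and 0.23. mt-Atp8, mt-Nd6 and mt-Nd5 did not pass (adjusted p = 0.0602, 0.111 and 0.205). These transcripts are cut from shared precursors, and mt-Nd4l with mt-Nd4 and mt-Atp8 with mt-Atp6 overlap in the genome, so the 13 are not independent. The count fell to 2 at a limit of 10% mt- UMIs, to 2 without barcodes over 1% haemoglobin, to 1 with hashtags centred per cell, to 4 by DESeq2 and to 6 without hashtag 1.

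**Figure D2:**
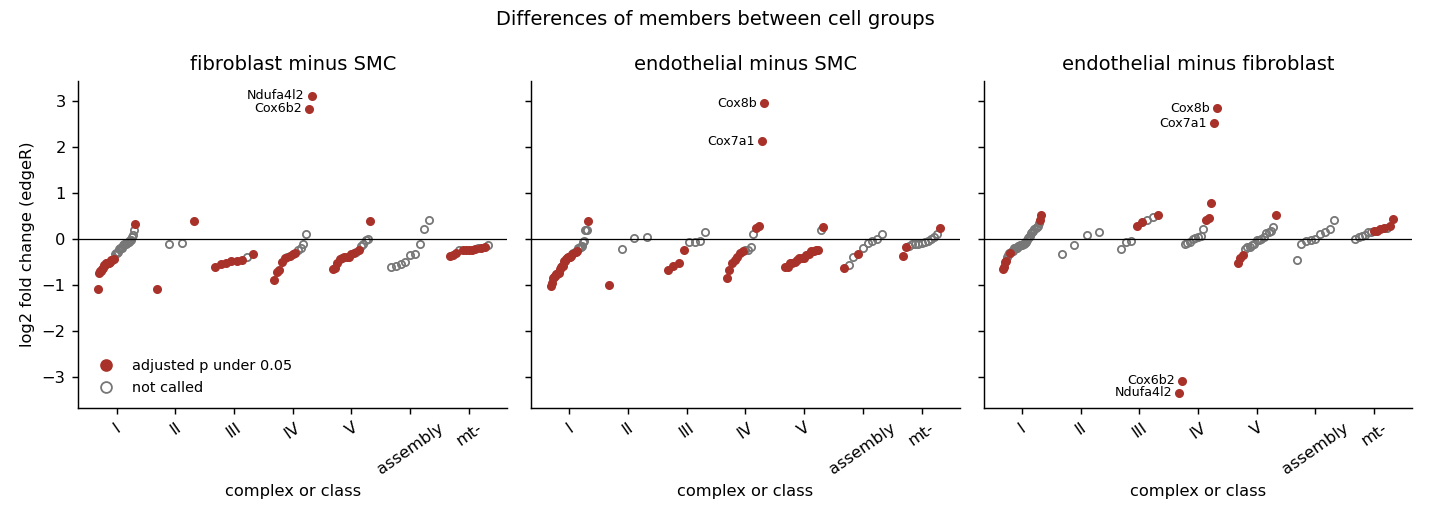
log2 fold change of each tested member by complex, with assembly and supercomplex factors and mt- members apart, in the 3 comparisons. Filled points had an adjusted p under 0.05; points are sorted by value within a class, and the named points are Ndufa4l2 (3.11 in fibroblast minus SMC), Cox6b2, Cox8b (2.95 in endothelial minus SMC) and Cox7a1.

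Endothelial cells were set against SMC in the same fit, and both comparisons share the SMC sums. Of 90 nuclear members, 53 were lower and 6 higher in endothelial sums. Over all genes, 29.0% were lower and 26.0% higher, and the medians were -0.32 for the members and -0.04 for all genes. Lower members made up 15 of 17 in complex V, 24 of 37 in complex I, 4 of 8 in complex III, 7 of 15 tested in complex IV and 1 of 4 in complex II. Of the 7 nuclear core subunits of complex I, which are conserved from bacteria, 5 were lower. Without barcodes over 1% haemoglobin the counts were 49 lower and 5 higher. Without hashtag 2 the count lower fell from 53 to 35.

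Ndufa11, a membrane-arm subunit of complex I, was at 159, 172 and 154 CPM in endothelial sums and at 312, 352 and 316 CPM in SMC sums, which is -1.02 ± 0.11 on the log2 scale (adjusted p = 9.55e-08). Ndufa13, also a complex I subunit, was at 281, 314 and 289 CPM against 542, 582 and 477 CPM, which is -0.85 ± 0.09 on the log2 scale (adjusted p = 5.25e-08). No endothelial value of either reached an SMC value. Sdhc was again the complex II subunit that differed, at 66.9, 60.1 and 76.3 CPM against 133, 139 and 135 CPM, which is -1.0 ± 0.13 on the log2 scale (adjusted p = 6.27e-07). Sdha, Sdhb and Sdhd did not pass (adjusted p = 0.19, 0.776 and 0.916). Ndufb3 and Cox6c fell by 0.96 and 0.85 on the log2 scale, Ndufb2 and Ndufv3 by 0.83 and 0.81, and Ndufb1-ps by 0.76. None of these 8 calls was lost in the 18 alternatives run. Among the usual forms of complex IV subunits, Cox8a fell by 0.51, Ndufa4 by 0.45, Cox4i1 by 0.39 and Cox7a2 by 0.26, the call of the last lost in 3 of 18 alternatives.

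Cox8b and Cox7a1 were higher in endothelial cells. Cox8b, the form of subunit VIII found in striated muscle and brown fat, was at 51.1, 57.4 and 58.8 CPM in endothelial sums and at 7.62, 6.73 and 6.94 CPM in SMC sums. Its log2 fold change was 2.95 ± 0.22 (adjusted p = 1.31e-10). Cox7a1, the form of subunit VIIa of the same tissues, was at 22.3, 17.8 and 26.3 CPM against 6.41, 5.66 and 2.98 CPM, which is 2.13 ± 0.38 on the log2 scale (adjusted p = 5.83e-05). The groups did not overlap for either gene. Neither call was lost in any alternative that tested the gene. Their partners were lower: Cox8a at 607 ± 13.0 against 868 ± 48.8 CPM and Cox7a2 at 492 ± 8.86 against 591 ± 27.9 CPM (SD, n = 3).

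Some markers of brown fat moved with these 2 genes, and Cidea did not. Ucp1, the uncoupling protein that defines brown fat, was at 31.5, 34.2 and 21.3 CPM in endothelial sums and at 3.64, 3.50 and 2.98 CPM in SMC sums; it was looked up after its pooled level was seen. Ucp1 and Cidea are the genes of the brown fat rule, which limits them in every other group, so their levels and ratios are a description. For 1 Ucp1 UMI there were 1.95 Cox8b UMIs in all endothelial barcodes (95% interval 1.5 to 2.56), 2.19 in SMC (1.93 to 2.5), 2.00 in fibroblast (1.30 to 3.14) and 2.09 in brown fat barcodes (1.38 to 3.22). The 4 intervals overlapped. Cox7a1 UMIs per Ucp1 UMI were 0.895 in endothelial (0.650 to 1.23), 1.38 in SMC (1.20 to 1.59), 1.03 in fibroblast (0.619 to 1.72) and 0.743 in brown fat barcodes (0.429 to 1.27). Cidea, a lipid droplet protein of brown fat, did not keep such a ratio in every group. Cidea UMIs per Ucp1 UMI were 0.302 in endothelial (0.187 to 0.474) and 1.72 in SMC barcodes (1.499 to 1.96). They were 0.727 in fibroblast (0.411 to 1.27) and 1.46 in brown fat barcodes (0.929 to 2.31). The endothelial interval lay below those of SMC and brown fat and overlapped that of fibroblasts. The brown fat interval overlapped those of SMC and fibroblasts, which did not overlap each other. Without TMM scaling, Cidea was at 3.88, 9.99 and 5.11 CPM in endothelial sums of hashtags 1, 2 and 3. In SMC sums it was at 5.30, 6.22 and 6.13 CPM. Of 6 brown fat markers, 6 were detected in endothelial barcodes, and their sum of 22232 CPM was mostly Fabp4 (22184 CPM), which capillary endothelium also expresses; outside the rule, Adipoq was at 3.75 against 0.743 CPM in SMC barcodes, Plin1 at 1.87 against 0.51 and Cidec at 7.18 against 0.807. The part of brown fat transcripts in the rise of Cox8b and Cox7a1 was not tested. The 168 Cox8b UMIs lay in 123 of 900 endothelial barcodes with at most 5 in 1, and the 77 Cox7a1 UMIs in 68 with at most 3. Barcodes under 500 genes had Cox8b at 17.5 and Cox7a1 at 5.46 CPM, against 8.0 and 5.03 CPM in all SMC barcodes.

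Cox8b made up 7.72%, 8.50% and 9.02% of Cox8b and Cox8a UMIs in the endothelial sums of hashtags 1, 2 and 3, and 0.909%, 0.724% and 0.809% in SMC sums. Cox7a1 made up 4.40%, 3.42% and 5.07% of its pair in endothelial and 1.10%, 0.899% and 0.515% in SMC sums. The endothelial values lay above the SMC values in every hashtag. At a limit of 10% mt- UMIs with at least 1000 UMIs, the endothelial mean share of Cox8b fell to 3.47%. The other 4 members higher in endothelial sums rose little: Ndufc2, Cox5a and Atp5o by 0.39, 0.29 and 0.27 on the log2 scale, and Cox6a1 by 0.25 (adjusted p = 0.0462). The Cox6a1 call was lost in 12 of 18 alternatives.

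Counts of mt- members between endothelial cells and SMC were small and moved with the settings. mt-Nd4l was lower, at 3860 ± 488 against 4966 ± 364 CPM (log2 fold change -0.37 ± 0.07, adjusted p = 0.000132), and so was mt-Cytb, by 0.18 (adjusted p = 0.0313). mt-Nd6, the member transcribed from the opposite strand to the others, was higher, at 345 ± 43.3 against 294 ± 37.7 CPM (log2 fold change 0.23 ± 0.09, adjusted p = 0.0327). Of 13, 2 were lower (15.4%) and 1 higher (7.69%), against 29.0% and 26.0% over all genes. The count lower was 2, but 1 without hashtag 2 or 3, 10 with barcodes kept in every group whose rule they meet, 10 at a limit of 10% mt- UMIs, and 0 without barcodes over 1% haemoglobin. The count higher was 1, 0 without any 1 of the hashtags and 3 without barcodes over 1% haemoglobin.

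Endothelial and fibroblast sums, which also enter the comparisons above, differed in fewer members: 11 nuclear members were higher and 10 lower in endothelial sums, against 19.3% higher and 21.0% lower over all genes. The median was -0.03. The 4 alternative isoforms had the largest differences, with Ndufa4l2 at -3.34 ± 0.45, Cox6b2 at -3.08 ± 0.43, Cox8b at 2.84 ± 0.34 and Cox7a1 at 2.52 ± 0.62 on the log2 scale. Cox7a1 had 6 UMIs in the fibroblast sums, and 0 in hashtag 1, so its fold is loosely fixed. Cox5a, a matrix-side subunit of complex IV, was at 248, 264 and 269 CPM in endothelial and 150, 141 and 161 CPM in fibroblast sums, which is 0.79 ± 0.12 on the log2 scale (adjusted p = 1.69e-05). Atp5j, a stalk subunit of complex V, rose by 0.52, and Ndufa13 and Ndufv3 fell by 0.65 and 0.61. Uqcrc1, a core protein of complex III, and Ndufa8 rose by 0.53 and 0.52, but these calls were lost in 10 and 5 of 18 alternatives. Of the mt- members 6 were higher and 0 lower by edgeR, 9 and 0 at an unadjusted p under 0.05 and 4 and 0 by DESeq2, and over the alternatives the count higher ran from 0 to 10. Without hashtag 1 or 2, the count of nuclear members higher fell from 11 to 7, and without hashtag 1 that of mt- members higher fell from 6 to 1, against 10 without hashtag 2.

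**Figure D3:**
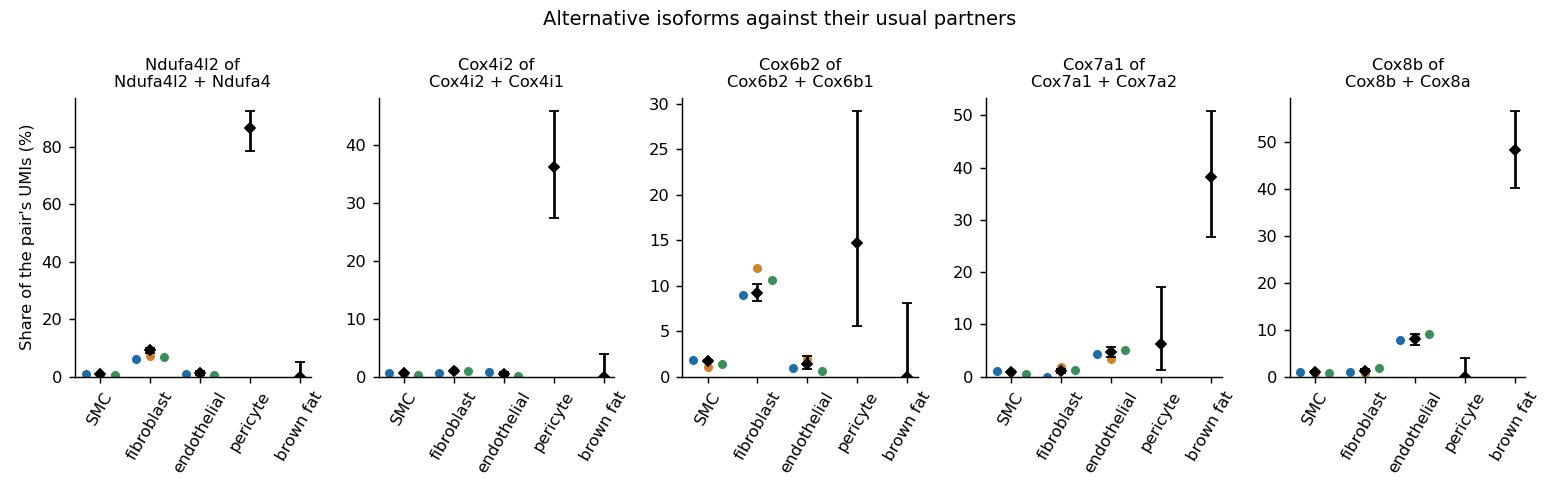
Share (%) of each alternative isoform in the UMIs of its pair, by cell group, with an axis of its own for each pair. Circles are hashtag sums (colours as in the plot of shares of UMIs), diamonds are all barcodes with exact 95% intervals; Ndufa4l2 reached 86.7% in pericyte and Cox8b 48.3% in brown fat barcodes.

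Pericyte barcodes had the highest levels of Ndufa4l2 and Cox4i2. The 28 barcodes held 102079 UMIs, with 3, 3 and 2 barcodes in the 3 hashtags, too few for a test, so all values are pooled and have no replicate check. Of the 6 pericyte markers, 6 were detected, among them Rgs5 at 7974, Notch3 at 764 and Abcc9 at 754 CPM, against 367, 16.3 and 166 in SMC barcodes. Ndufa4l2 stood at 891 CPM (exact 95% interval 718 to 1095) against 4.97 CPM in SMC barcodes, and its partner Ndufa4 at 137 (75.0 to 230.1) against 584 CPM. The isoform was thus the larger of the pair: 91 of 105 UMIs, or 86.7% (78.6 to 92.5%), spread over 25 of 28 barcodes. Cox4i2, the oxygen-regulated form of subunit IV, stood at 402 CPM (288 to 545) against 5.89, in 17 of 28 barcodes. It made up 41 of 113 UMIs of its pair (36.3%, 27.4 to 45.9%), against 0.56% in SMC, 0.927% in fibroblast and 0.458% in endothelial barcodes.

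The usual forms went different ways in pericyte barcodes. Cox4i1 was at 705 CPM (552 to 888) against 1045 in SMC barcodes, while Cox8a was at 901 (727 to 1105) against 777 and Cox6a1 at 490 (364 to 646) against 234 CPM. Cox6b2 had 6 UMIs (58.8 CPM, 21.6 to 128) and Cox8b 0, with an upper limit of 3.26% of its pair (3 counts). Of 76 nuclear members with at least 5 UMIs expected at the SMC level, 2 were at least 2-fold higher (Cox6a1 and Ndufs8) and 4 at least 2-fold lower (Ndufa4, Ndufab1, Ndufaf8 and Ndufb1-ps). Over all 2731 such genes, 6.63% were higher and 18.5% lower by that size. The nuclear share was 2.06% and the mt- share 11.8% of UMIs. With barcodes that also met other rules (64, of which 30 met the SMC rule), the Ndufa4l2 share was 47.8% and the Cox4i2 share 14.0%. In the 21 barcodes with at most 1% haemoglobin, 79 of the 91 Ndufa4l2 UMIs and 30 of the 41 Cox4i2 UMIs remained.

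Among barcodes meeting exactly 1 rule, brown fat barcodes had the highest shares of respiratory chain transcripts of the 5 groups; the mt- order changed when barcodes meeting several rules were kept. The 19 barcodes (49896 UMIs, median 1924) had all 6 brown fat markers; beside the rule's own Ucp1 and Cidea, Adipoq and Plin1 were each at 140 CPM and Cidec at 120 CPM, against under 1 CPM in SMC barcodes, and Fabp4 was at 4209 against 581 CPM. Their nuclear share was 4.76% (exact 95% interval 4.57 to 4.95%) and their mt- share 15.5%. Summed by complex, nuclear subunits of complex II were at 1022 CPM against 305 in SMC barcodes, of complex III at 5672 against 2359, of complex IV at 15532 against 6355, of complex I at 14410 against 7527 and of complex V at 10321 against 5756. Assembly and supercomplex factors were close, at 641 against 638 CPM. Of 62 nuclear members with at least 5 UMIs expected at the SMC level, 25 were at least 2-fold higher and 0 lower; over all 1361 such genes, 4.92% were higher and 12.2% lower. Only 1 of the 19 barcodes had a single hashtag, so these values have no replicate check.

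Single members show the range. Cox8b was at 1463 CPM (1147 to 1840) against 8.0 in SMC barcodes, from 73 UMIs in 14 of 19 barcodes, with 14 in 1 of them, and Cox7a1 at 521 (340 to 764) against 5.03, from 26 UMIs in 12 barcodes. Cox8b made up 48.3% of its pair (40.1 to 56.6%) and Cox7a1 38.2% (26.7 to 50.8%), while their partners were not lower: Cox8a was at 1563 (1236 to 1951) and Cox7a2 at 842 CPM (607 to 1138). Atp5b, the catalytic subunit of ATP synthase, was at 1182 CPM (900 to 1525) against 356, Uqcrc1 at 381 (229 to 595) against 64.0, Cox5a at 942 (692 to 1253) against 197 and Sdha at 381 (229 to 595) against 83.4. Ndufa4l2, Cox4i2, Cox6a2 and Cox6b2 had 0 UMIs, which allows up to 4.29%, 3.26%, 7.50% and 6.82% of their pairs (3 counts).

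These values rest on barcodes that carried haemoglobin. Of the 19, 17 had over 1% haemoglobin UMIs, and they held all 73 Cox8b, 26 Cox7a1, 35 Ucp1 and 7 Adipoq UMIs, with a nuclear share of 5.84%. The other 2 met the rule through 4 Cidea UMIs, held 0 UMIs of Ucp1, Cox8b and Cox7a1, and had a nuclear share of 2.07%. SMC markers summed to 14049 CPM in the brown fat barcodes, between the 33594 of SMC and the 5047 of endothelial barcodes, and macrophage markers to 441 against 54.0 CPM in SMC. Their part in the result was not tested. When barcodes that met other rules were kept as well (151, of which 89 met the SMC rule), the nuclear share was 2.98%, the Cox8b share 18.7% and the Cox7a1 share 10.3%, and 1 member was at least 2-fold higher. The nuclear share was then still the highest, above 2.62% in pericyte and 2.29% in SMC barcodes. The mt- share was 9.52% in brown fat barcodes, below 11.6% in SMC, 10.5% in fibroblast and 10.4% in endothelial barcodes. Just inside the rule, 103 such barcodes with 2 Ucp1 or Cidea UMIs had 73.3 CPM of Cox8b and 1.5 of Adipoq; just outside, 1269 barcodes with 1 UMI had 24.1 and 1.93 CPM.

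**Figure D4:**
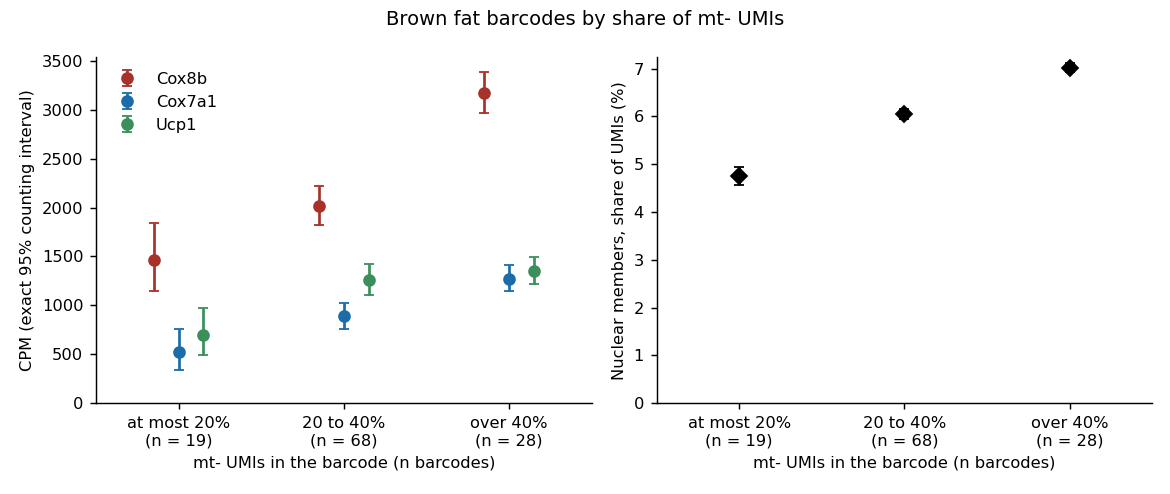
Brown fat barcodes with at least 500 genes in 3 ranges of mt- share: CPM of Cox8b, Cox7a1 and Ucp1 with exact 95% counting intervals (left) and the share of UMIs in nuclear members with exact binomial intervals (right). Only the 19 barcodes at most 20% pass the filter, and Cox8b is at 1463, 2016 and 3168 CPM in the 3 ranges.

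The limit of 20% mt- UMIs removed most brown fat barcodes. Of 115 with at least 500 genes, 96 lay above it (83.5%, exact 95% interval 75.4 to 89.7%), against 31.5% of SMC and 17.6% of pericyte barcodes (6 of 34). The 68 barcodes between 20 and 40% had a nuclear share of 6.04% and the 28 above 40% one of 7.02%. Of UMIs other than mt-, nuclear members took 5.63%, 8.74% and 16.6% in the 3 ranges. Ucp1 rose along the ranges from 701 to 1255 and 1350 CPM, and Ppargc1a, a coactivator of mitochondrial biogenesis, had 0, 6 and 34 UMIs. The SMC gene Acta2 went the other way, at 5511, 4914 and 1339 CPM, and the haemoglobin gene Hbb-bs was at 17657, 18117 and 3772 CPM. High mt- shares can mark broken cells as well as cells rich in mitochondria, and which applies to these barcodes was not tested.

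Lists of related genes, 6 in all, were read from the same fits. In the citric acid cycle, which feeds complexes I and II, 6 of 13 genes tested were lower in fibroblasts and 6 of 13 in endothelial cells than in SMC, and 0 were higher. Suclg2, a subunit of succinyl-CoA synthetase, fell by 1.04 in fibroblasts and 1.26 in endothelial cells on the log2 scale, Cs (citrate synthase) by 0.94 in fibroblasts, and Idh3a and Sucla2 by 0.78 and 0.76 in endothelial cells. Glycolysis genes were lower as well: 11 of 17 in fibroblasts with 0 higher, and 13 of 17 in endothelial cells with 1 higher. Hk2 (hexokinase) was at 4.06 and 2.64 against 19.9 CPM in SMC, Pfkm (phosphofructokinase of muscle) at 3.28 and 6.45 against 17.4 CPM, and Pkm (pyruvate kinase) at 132 in endothelial cells against 334 CPM. Pfkl, the phosphofructokinase of liver type, fell by 1.64 in fibroblasts. Hk2 had 6 UMIs in the fibroblast sums, with 0 in hashtag 1, and 6 in the endothelial sums. Pfkm had 5 and 15, and Pfkl 10 in the fibroblast sums, so these folds are loosely fixed. The background shares are those given above for each comparison.

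Among cytochrome c and assembly factors without a member prefix, 8 of 17 were lower and 1 higher in fibroblasts, and 10 lower and 0 higher in endothelial cells. Higd1a, a complex IV factor, fell by 1.47 in both. Atpif1, the inhibitor of ATP synthase, fell by 1.19 and Ecsit, a complex I assembly factor, by 1.11 in endothelial cells, and in fibroblasts Cox17, a copper chaperone, fell by 0.80 and Sco2 rose by 1.21, a call not made by DESeq2. Fatty acid oxidation and uncoupling split, with 3 of 10 higher and 2 lower in fibroblasts and 3 of 10 each way in endothelial cells. Over all genes, 20.9% were higher and 19.7% lower in fibroblasts, and 26.0% and 29.0% in endothelial cells. Ucp2, an uncoupling protein relative, rose by 1.03 and 2.29. Etfb and Etfa, which pass electrons from fatty acid oxidation, rose by 0.69 and 0.63 in fibroblasts, while Hadhb rose by 0.53 and Acadm fell by 0.72 in endothelial cells. In mitochondrial biogenesis, 1 of 7 genes tested was higher in fibroblasts and 2 in endothelial cells, next to 20.9% and 26.0% over all genes. Nrf1 rose by 0.85 and 1.08, and Gabpa by 0.67 in endothelial cells. By DESeq2, 0 of 7 were higher in fibroblasts. Ppargc1a did not pass the filter on low counts.

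In the list of oxygen sensing, 3 of 9 were higher and 3 lower in fibroblasts, and 2 higher and 1 lower in endothelial cells. The shares over all genes were 20.9% higher and 19.7% lower in fibroblasts, and 26.0% and 29.0% in endothelial cells. Hif1a, the oxygen-regulated factor, fell by 1.00 in fibroblasts and 0.92 in endothelial cells, while its relative Epas1 stood at 509 CPM in endothelial sums against 71.3 in SMC (log2 fold change 2.84 ± 0.11, adjusted p = 1.75e-15) and Bnip3l rose by 0.80. In fibroblasts, Adm (adrenomedullin) was at 158 against 18.1 CPM in SMC (log2 fold change 3.08 ± 0.19, adjusted p = 1.21e-11). Vegfa was at 16.6 against 5.19 CPM (1.68 ± 0.41, adjusted p = 0.00213). Egln1 and Epas1, which complete the count lower in fibroblasts, fell by 0.69 and 0.68 on the log2 scale. Between endothelial and fibroblast sums, Epas1 and Egln1 rose by 3.52 and 0.84 and Adm fell by 3.17. Over all genes, 19.3% were higher and 21.0% lower in endothelial than in fibroblast sums. In that comparison 0 of 13 citric acid cycle genes passed by edgeR or DESeq2, with 1 higher at an unadjusted p under 0.05. Of 17 glycolysis genes 4 were higher, among them Pfkl by 1.73, with 10 UMIs in the fibroblast sums. Another 6 were lower, among them Pdha1 by 0.75 and Ldhb by 0.74. Of 17 cytochrome c and assembly genes 3 were higher, among them Cycs by 0.73, and 3 lower, among them Atpif1 by 0.78 and Uqcc2 by 0.76. Of 10 fatty acid genes, Ucp2 rose by 1.26 and Etfa fell by 1.12, and 0 of 7 biogenesis genes passed by edgeR or DESeq2, with 1 lower at an unadjusted p under 0.05.

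Of the 98 nuclear members, 8 did not pass the filter on low counts. Cox4i2 had 555, 73 and 13 UMIs in all SMC, fibroblast and endothelial barcodes, and Cox6a2, the muscle form of subunit VIa, had 16, 2 and 0. Cox7b2 and Cox8c, known from testis, had 1 UMI each in SMC barcodes. The assembly factors Ndufaf1, Ndufaf5, Ndufaf6 and Sdhaf3 had between 720 and 1161 UMIs in SMC barcodes and fell short in the hashtag sums. Cox7a2l, which helps join complexes III and IV, was tested and was even across groups, at 293 ± 21.1 CPM in fibroblast, 315 ± 12.1 in endothelial and 315 ± 24.9 in SMC sums (SD, n = 3).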

How the data were processed

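The authors deposited 1 matrix of UMI counts for genes and 3 hashtags, which Cell Ranger 6.0.1 wrote, per the file headers. Build mm10 and the tool Seurat 4.0.5 come from the list in the submitters' processing notes, which gives no role for them. The labels' protocols give a 10x 3′ kit. The 4 gene expression and 4 hashtag libraries are pooled in it under 1 barcode suffix, so barcodes could not be traced to libraries and a batch by library cannot be told apart. Each hashtag was read as 1 animal.

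Barcodes with at least 500 genes and at most 20% mt- UMIs were kept. SMC barcodes had Acta2, Tagln and Myh11 at 1.5% of UMIs or more, fibroblasts Dcn at 0.3% or more, endothelial barcodes at least 3 UMIs of Pecam1, Cdh5 and Gpihbp1, pericytes at least 2 of Higd1b and Vtn, and brown fat barcodes at least 2 of Ucp1 and Cidea. Barcodes meeting exactly 1 rule were grouped. Doublets were treated only by this and by HTODemux (Seurat 5.3.0, quantile 0.99), which called 7421 barcodes (26.9%) doublets and 15524 (56.3%) negative. The hashtag calls limited the sums per hashtag only. Pooled values took every barcode of a group, so barcodes called doublet or negative were not removed from them. UMIs summed per hashtag and group were tested for SMC, fibroblasts and endothelial cells in 1 edgeR 4.0.16 quasi-likelihood fit (R 4.3.3, TMM, filterByExpr, hashtag as block) over 8423 genes, with Benjamini-Hochberg adjustment. The steps were tested on simulated data. Pericyte and brown fat barcodes were under 10 per hashtag and are given pooled, with exact Poisson or binomial 95% intervals (SciPy 1.17.1) that cover counting error only. DESeq2 1.42.0, other filters, groupings and hashtag calls, and leaving out each hashtag were alternatives.

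The text names isoform members and Sdha to Sdhd, the 13 mt- genes, the 10 called members with the largest fold per comparison (same direction in all 3 hashtags, at least 30 UMIs) and the 3 leading called genes of each pathway list. Of the genes this rule names, 1 is not reported here. Members and lists were chosen with earlier results of these data known. Chosen after values were seen were the rule that a pooled 2-fold count takes members with 5 UMIs expected at the SMC level, the ranges of mt- share in brown fat, the counts per barcode, the ratios to Ucp1 and other markers, the split at 1% haemoglobin of small groups, the motifs and the limit of 3000 UMIs. Other members named beside these were also picked after their values were seen.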

Additional observations from a re-analysis of the deposited data

Results flagged for a closer look

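Brown fat barcodes above 40% mt- UMIs lie outside the cell filter and enter no comparison, yet they held the highest levels of the isoforms Cox8b and Cox7a1. In these 28 barcodes Cox8b was at 3167.52 CPM and Cox7a1 at 1274.25 CPM, against 8.0 and 5.03 CPM in SMC barcodes inside the filter. No replicate check was possible.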

How the results depend on the processing

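Of 724 alternative values for the 41 named gene results, 52 lost the call and 0 changed sign. Counted by result, 30 of the 41 kept their call in every alternative run. For 7 of the 41, some alternative value differed from the reported one by more than 1.5 times. Counts of members lower than in SMC kept to within 1.5 times of the reported count for nuclear members, except in fibroblasts with hashtags centred per cell and in endothelial cells without hashtag 2. Counts of mt- members moved most often. The cause of each move was not tested.

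The hashtag was the replicate block of every fit, since the pairing of the 3 groups comes from shared animals, and the library numbers 1 to 4 of the labels paired no sums. With no replicate block, nuclear members numbered 5 higher and 45 lower in fibroblasts than in SMC, 6 and 53 in endothelial cells than in SMC, and 11 and 10 in endothelial cells than in fibroblasts. Without the block, counts that moved were mt- members higher in endothelial than in SMC 0, mt- members lower in endothelial than in SMC 1 and mt- members higher in endothelial than in fibroblast 3. Without 1 hashtag at a time, counts ran from 2 to 4 for nuclear members higher in fibroblast than in SMC (5 with all), 6 to 11 for mt- members lower in fibroblast than in SMC (10 with all), 35 to 51 for nuclear members lower in endothelial than in SMC (53 with all), 0 to 0 for mt- members higher in endothelial than in SMC (1 with all), 1 to 2 for mt- members lower in endothelial than in SMC (2 with all), 7 to 8 for nuclear members higher in endothelial than in fibroblast (11 with all) and 1 to 10 for mt- members higher in endothelial than in fibroblast (6 with all).

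With at most 10% mt- UMIs and at least 1000 UMIs per barcode, counts that moved were nuclear members higher in fibroblast than in SMC 2, mt- members lower in fibroblast than in SMC 2, nuclear members higher in endothelial than in SMC 1, mt- members higher in endothelial than in SMC 0, mt- members lower in endothelial than in SMC 10, nuclear members higher in endothelial than in fibroblast 4 and mt- members higher in endothelial than in fibroblast 0. With at most 10% mt- UMIs and at least 1000 UMIs per barcode, pooled counts that moved were nuclear members at least 2-fold higher in pericyte 1 and nuclear members at least 2-fold lower in pericyte 9. With hashtags centred per cell, counts that moved were nuclear members higher in fibroblast than in SMC 0, nuclear members lower in fibroblast than in SMC 24, mt- members lower in fibroblast than in SMC 1, mt- members higher in endothelial than in SMC 0, mt- members lower in endothelial than in SMC 1, nuclear members higher in endothelial than in fibroblast 7, nuclear members lower in endothelial than in fibroblast 3 and mt- members higher in endothelial than in fibroblast 0. By DESeq2, counts that moved were nuclear members higher in fibroblast than in SMC 3, mt- members lower in fibroblast than in SMC 4, mt- members higher in endothelial than in SMC 0 and mt- members lower in endothelial than in SMC 1. With no filter on low counts, counts that moved were nuclear members higher in fibroblast than in SMC 2, nuclear members higher in endothelial than in SMC 3, mt- members higher in endothelial than in SMC 0, mt- members lower in endothelial than in SMC 5 and mt- members higher in endothelial than in fibroblast 10. Without barcodes over 1% haemoglobin, counts that moved were mt- members lower in fibroblast than in SMC 2, mt- members higher in endothelial than in SMC 3 and mt- members lower in endothelial than in SMC 0. Without barcodes over 1% haemoglobin, pooled counts that moved were nuclear members at least 2-fold higher in pericyte 1, nuclear members at least 2-fold higher in brown fat 0 and nuclear members at least 2-fold lower in brown fat 2. With barcodes in every group whose rule they met, counts that moved were nuclear members higher in endothelial than in SMC 3, mt- members higher in endothelial than in SMC 0, mt- members lower in endothelial than in SMC 10, nuclear members lower in endothelial than in fibroblast 6, mt- members higher in endothelial than in fibroblast 1 and mt- members lower in endothelial than in fibroblast 1. With barcodes in every group whose rule they met, pooled counts that moved were nuclear members at least 2-fold higher in pericyte 0, nuclear members at least 2-fold lower in pericyte 1 and nuclear members at least 2-fold higher in brown fat 1. With barcodes of several rules put in 1 group by precedence, counts that moved were nuclear members higher in endothelial than in SMC 3, mt- members higher in endothelial than in SMC 0, mt- members lower in endothelial than in SMC 10, mt- members higher in endothelial than in fibroblast 0 and mt- members lower in endothelial than in fibroblast 2. With barcodes of several rules put in 1 group by precedence, pooled counts that moved were nuclear members at least 2-fold higher in pericyte 0, nuclear members at least 2-fold lower in pericyte 1 and nuclear members at least 2-fold higher in brown fat 1. With at least 3000 UMIs per barcode, chosen after seeing the data, counts that moved were nuclear members higher in endothelial than in SMC 2, mt- members higher in endothelial than in SMC 0, mt- members lower in endothelial than in SMC 10, nuclear members higher in endothelial than in fibroblast 7, nuclear members lower in endothelial than in fibroblast 16, mt- members higher in endothelial than in fibroblast 0 and mt- members lower in endothelial than in fibroblast 1. With at least 3000 UMIs per barcode, chosen after seeing the data, pooled counts that moved were nuclear members at least 2-fold higher in pericyte 1, nuclear members at least 2-fold higher in brown fat 5 and nuclear members at least 2-fold lower in brown fat 2. At a limit of 40% mt- UMIs, counts that moved were mt- members higher in endothelial than in SMC 2 and mt- members lower in endothelial than in SMC 1. At a limit of 40% mt- UMIs, pooled counts that moved were nuclear members at least 2-fold higher in brown fat 61. At a HTODemux quantile of 0.95, counts that moved were mt- members higher in endothelial than in SMC 0, mt- members lower in endothelial than in SMC 1 and mt- members higher in endothelial than in fibroblast 2. With hashtags called by their ratio, counts that moved were mt- members higher in endothelial than in SMC 2, mt- members lower in endothelial than in SMC 1 and mt- members higher in endothelial than in fibroblast 10. With other groups held under 0.5% SMC marker UMIs, counts that moved were mt- members lower in endothelial than in SMC 4. With other groups held under 0.5% SMC marker UMIs, pooled counts that moved were nuclear members at least 2-fold higher in pericyte 0 and nuclear members at least 2-fold lower in pericyte 11. With DESeq2 size factors in edgeR, counts that moved were mt- members lower in endothelial than in SMC 1.

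Shares are means over hashtags for SMC, fibroblast and endothelial barcodes and pooled for the other groups. With at most 10% mt- UMIs and at least 1000 UMIs per barcode, shares of UMIs that moved were nuclear share in pericyte 1.92%, mt- share in SMC 8.12%, mt- share in fibroblast 7.21%, mt- share in endothelial 7.10% and mt- share in pericyte 8.60%. With at most 10% mt- UMIs and at least 1000 UMIs per barcode, isoform shares that moved were Ndufa4l2 share in fibroblast 7.45%, Cox6b2 share in fibroblast 7.91%, Cox7a1 share in endothelial 3.21% and Cox8b share in endothelial 3.47%. Without barcodes over 1% haemoglobin, shares of UMIs that moved were nuclear share in pericyte 2.18%, nuclear share in brown fat 2.07%, mt- share in SMC 10.2%, mt- share in pericyte 12.0% and mt- share in brown fat 12.1%. Without barcodes over 1% haemoglobin, isoform shares that moved were Ndufa4l2 share in fibroblast 7.70%, Cox7a1 share in brown fat 0% and Cox8b share in brown fat 0%. With barcodes in every group whose rule they met, shares of UMIs that moved were nuclear share in fibroblast 1.94%, nuclear share in endothelial 2.07%, nuclear share in pericyte 2.62%, nuclear share in brown fat 2.98%, mt- share in pericyte 9.21% and mt- share in brown fat 9.52%. With barcodes in every group whose rule they met, isoform shares that moved were Ndufa4l2 share in pericyte 47.8%, Cox4i2 share in pericyte 14.0%, Ndufa4l2 share in fibroblast 5.57%, Cox7a1 share in endothelial 3.26%, Cox8b share in endothelial 6.92%, Cox7a1 share in brown fat 10.3% and Cox8b share in brown fat 18.7%. With barcodes of several rules put in 1 group by precedence, shares of UMIs that moved were nuclear share in fibroblast 1.95%, nuclear share in endothelial 2.03%, nuclear share in pericyte 2.62%, nuclear share in brown fat 2.98%, mt- share in fibroblast 10.3%, mt- share in pericyte 9.21% and mt- share in brown fat 9.52%. With barcodes of several rules put in 1 group by precedence, isoform shares that moved were Ndufa4l2 share in pericyte 47.8%, Cox4i2 share in pericyte 14.0%, Ndufa4l2 share in fibroblast 5.78%, Cox7a1 share in endothelial 2.68%, Cox8b share in endothelial 5.51%, Cox7a1 share in brown fat 10.3% and Cox8b share in brown fat 18.7%. With at least 3000 UMIs per barcode, chosen after seeing the data, shares of UMIs that moved were nuclear share in brown fat 3.36%, mt- share in fibroblast 9.34%, mt- share in endothelial 9.35%, mt- share in pericyte 11.2% and mt- share in brown fat 12.7%. With at least 3000 UMIs per barcode, chosen after seeing the data, isoform shares that moved were Cox7a1 share in endothelial 3.08%, Cox8b share in endothelial 6.62%, Cox7a1 share in brown fat 20.8% and Cox8b share in brown fat 39.0%. At a limit of 40% mt- UMIs, shares of UMIs that moved were nuclear share in brown fat 5.79%, mt- share in SMC 12.9%, mt- share in fibroblast 11.5%, mt- share in endothelial 13.7%, mt- share in pericyte 12.8% and mt- share in brown fat 27.8%. With other groups held under 0.5% SMC marker UMIs, shares of UMIs that moved were nuclear share in fibroblast 1.81%, nuclear share in pericyte 1.98% and mt- share in pericyte 11.6%. With other groups held under 0.5% SMC marker UMIs, isoform shares that moved were Ndufa4l2 share in pericyte 96.9% and Ndufa4l2 share in fibroblast 7.78%. Over all barcodes whatever their hashtag, isoform shares that moved were Ndufa4l2 share in fibroblast 9.10%.

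Brown fat and pericyte values rest on 19 and 28 barcodes. Under the limit of 10% mt- UMIs, and with other groups held under 0.5% SMC marker UMIs, 0 brown fat barcodes were left, so those values could not be had. Within the hashtags, depth limits isoforms: Ndufa4l2 had 56 UMIs in the fibroblast sums and Cox7a1 51 in the endothelial sums. Only 4644 barcodes had a single hashtag, and 3 animals bound what a test can show.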
